A study of Mus musculus with 16 samples.

Results

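*Malat1*, *Neat1*, *Meg3*, *Kcnq1ot1*, *Gas5*, *Snhg1*, *Snhg8*, *Snhg12* and *Zfas1* are 9 of the 56748 genes counted in mouse TM4 cells. They were listed by name as abundant long noncoding RNAs, and their rows were found by symbol. That name held for part of the list. No read was counted on *Meg3* in any of the 16 samples, and *Kcnq1ot1* had 19 to 52 reads per sample, whereas the other 7 genes had between 302 and 6360. Abundance was therefore the value used to choose the genes, and their levels are given as a description. The high *Malat1* value of 1 library was also known when the list was made.

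TM4 is an established line described as Sertoli-like, and 2.5 µg of plasmid was introduced into its cells 24 h before RNA was taken. The EV group (n = 6) received the vector pcDNA3.1-HA without insert, the gdf6Y group (n = 5) a plasmid expressing the killifish growth factor gene *gdf6Y*, and the del9 group (n = 5) a plasmid expressing a *gdf6Y* variant with a short deletion. All groups share the line, the transfection reagent and poly(A)-selected stranded libraries from 300 ng RNA, and no untransfected sample was analysed. Between 21486850 and 26444903 deduplicated reads were counted per sample. Of 10 Sertoli cell markers, 5 had at least 10 reads in every sample, among them *Gata4*, and 2 had none, *Wt1* and *Dmrt1*. All 4 fibroblast markers passed the same minimum, with *Col1a1* at 44856 to 56062 reads. The labels do not say that the samples were separate cultures, so the spread between these samples may be technical. The p-values of the main edgeR test rest on a variance shared over genes, with little or no weight on a gene's own spread. In bulk RNA, fewer cells and less RNA per cell cannot be told apart.

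Long noncoding RNAs act without being translated. *Malat1* and *Neat1* stay in the nucleus, where *Malat1* gathers in speckles that store splicing factors and *Neat1* is the scaffold of paraspeckles. *Kcnq1ot1* and *Meg3* are imprinted RNAs that are made from 1 parental allele each. *Gas5*, *Snhg1*, *Snhg8*, *Snhg12* and *Zfas1* are host genes: small nucleolar RNAs (snoRNAs), which guide the modification of ribosomal RNA, are cut from their introns. The spliced host RNA is exported and is often removed by nonsense-mediated decay.

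The end of *Malat1* is shown because the RNA is cut there and is not polyadenylated in the usual way, while the libraries were selected for poly(A). Its 3′ end has a pair of U-rich motifs and an A-rich tract encoded in the genome, which are known to fold into a triple helix. Stretches of these motifs were searched for on the strand of the gene and stand in capitals. The T bases just before the second U-rich stretch were not in the search and stand in lower case. The sequence lies on the minus strand at chr19:5846010-5846095 of GRCm39, inside the single annotated exon, and is written as DNA.
Malat1 3′ end: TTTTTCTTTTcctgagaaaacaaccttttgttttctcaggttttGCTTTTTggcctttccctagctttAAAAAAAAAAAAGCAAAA
The longest run of A in the *Malat1* gene is the run of 12 in this tract. Such a run does not mark *Malat1*, as the longest has 41 bases in *Kcnq1ot1*, 20 in *Meg3*, 17 in *Zfas1* and 12 in *Snhg12*. *Neat1* is a single-exon gene of 22397 bases at chr19:5874736-5897132, on the same strand as *Malat1*. Its longest run of A has 7 bases, and its end was not searched for the motifs.

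The starts of host genes are shown because several RNAs of this class are known to begin with a run of pyrimidines, as the mRNAs of ribosomal proteins do. In the RefSeq windows from 10 bases before to 20 bases from the annotated start (GRCm38.p6), the pyrimidine run that covers the first base stands in capitals.
Gas5, second start: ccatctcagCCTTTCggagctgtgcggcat
Snhg1: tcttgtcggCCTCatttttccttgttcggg
Snhg8: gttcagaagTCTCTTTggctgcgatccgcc
Snhg12: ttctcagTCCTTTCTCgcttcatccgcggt
Zfas1: tgcgccccgggcggccgcaggtctcggctg
Counted with their bases before the annotated start, these runs have 6 bases in *Gas5*, 4 in *Snhg1*, 7 in *Snhg8* and 9 in *Snhg12*. The part from the start on is shorter in each. The *Zfas1* window and a first *Gas5* start have none. By the same count, 10.1% of all 32851 windows have a run of at least 5.

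Levels were compared between genes per kilobase, as RPKM (reads per kilobase of transcript, scaled by library size). The order depended on the length used, because the annotated exons of many host genes cover introns as well. With the canonical transcript, *Gas5* was highest with 235 ± 12.6 (SD, n = 16), followed by *Zfas1* with 96.3 ± 5.48, *Snhg1* with 62.5 ± 3.75, *Snhg8* with 45.8 ± 2.09 and *Malat1* with 23.5 ± 4.53. *Snhg12* with 5.18 ± 0.336 and *Neat1* with 4.37 ± 0.828 followed, and *Kcnq1ot1* was at 0.722 ± 0.204. On this scale only *Snhg12* and *Neat1* overlapped among neighbours in the order. The canonical *Snhg12* transcript is 1 exon of 2842 bases, in a gene of 2858, whereas that of *Gas5* has 669 bases in 11 exons. The level of *Snhg12* thus rests on an unspliced length, unlike that of the spliced hosts. *Neat1* has 24 annotated transcripts, and its reads were counted per gene and divided by 22397 bases. With all annotated exons, *Gas5* fell to 37.2 ± 1.99 and *Zfas1* to 12.1 ± 0.686. *Kcnq1ot1*, which is not a host gene, moved most, to 0.0132 ± 0.00375, with 93852 bases in place of 1722. The order became *Gas5*, *Snhg8*, *Malat1*, *Snhg1*, *Zfas1*, *Snhg12*, *Neat1* and *Kcnq1ot1*. The first 4 then overlapped from neighbour to neighbour. All these levels, those of *Malat1* and *Neat1* included, are levels in poly(A)-selected RNA. For *Meg3*, a count of 0 allows up to 0.113 to 0.140 CPM (reads scaled to the library total), by 3 reads per library and for counting error only.

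**Figure D1:**
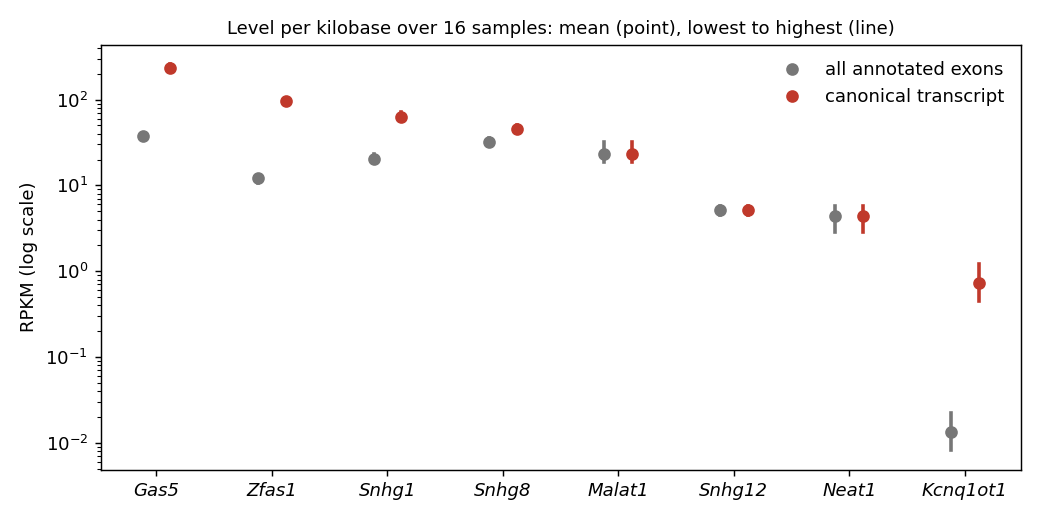
RPKM (log scale) of the 8 long noncoding RNAs with reads; points are means over 16 samples and lines run from the lowest to the highest sample, in grey for all annotated exons and in red for the canonical transcript. *Gas5* leads on both lengths, and *Zfas1* drops from the second place to the fifth with all exons.

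*Malat1* was lower in cells with either *gdf6Y* plasmid than with the empty vector, except in 1 library. Normalised read counts, which are counts scaled to a common library size with TMM, were 5712, 4806, 6178, 5219, 4857 and 5282 in the EV samples. They were 4330, 4206, 3760, 3930 and 3695 in the del9 samples. Every del9 sample was below every EV sample, which held for 3.55% of the 10075 genes whose mean count reached 100. In the gdf6Y samples they were 6008, 3652, 3747, 3833 and 3835. Of these 5 samples, 4 were below every EV sample, and replicate 1 lay inside the EV range.

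Between del9 and EV, *Malat1* differed by -0.42 on the log2 scale (SE 0.027, adjusted p = 6.84e-49, edgeR's quasi-likelihood test, Benjamini-Hochberg), so that the level fell by 25.3%. In this comparison 9.25% of the 26226 genes tested were called, 4.82% as higher and 4.43% as lower. The SE of the fit was far smaller than the one from the spread of the samples, 0.072. The fit gave *Malat1* a variance of 0.744, close to that of all genes, whereas its own was 6.11. The call held with an estimate that lets a gene keep its own spread (robust fit, adjusted p = 0.0084), with DESeq2 (adjusted p = 3.12e-06) and in an exact permutation test of the samples (two-sided, unadjusted p = 0.0022, the smallest that 462 splits allow). The robust fit called 9.07% of the genes and DESeq2 18.7% of those it gave an adjusted p.

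Between gdf6Y and EV, *Malat1* differed by -0.34 (SE 0.032, adjusted p = 3.17e-21, edgeR), where 5.08% of 26316 genes were called, 1.7% as higher and 3.38% as lower. Here the call depended on the fit, and 10 of 12 alternatives kept it, with the permutation test among them by its unadjusted p. With filterByExpr it was kept at a larger SE (0.101, adjusted p = 0.041, edgeR). The exact permutation test gave p = 0.030 (two-sided, unadjusted). The SE from the samples was 0.147, and the adjusted p was 0.32 with the robust fit and 0.12 with DESeq2, which called 4.99% and 13.5% of genes. Without gdf6Y replicate 1 the log2 difference was -0.50 (adjusted p = 1.00e-62, edgeR). Between gdf6Y and del9, *Malat1* did not pass the test (log2 difference 0.09, SE 0.032, adjusted p = 0.26, edgeR), and the SE from the samples was 0.142. Its sign rested on gdf6Y replicate 1, without which it was -0.08 (adjusted p = 0.43), and it was called without gdf6Y replicate 2 (0.13), gdf6Y replicate 3 (0.13) or del9 replicate 1 (0.12).

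**Figure D2:**
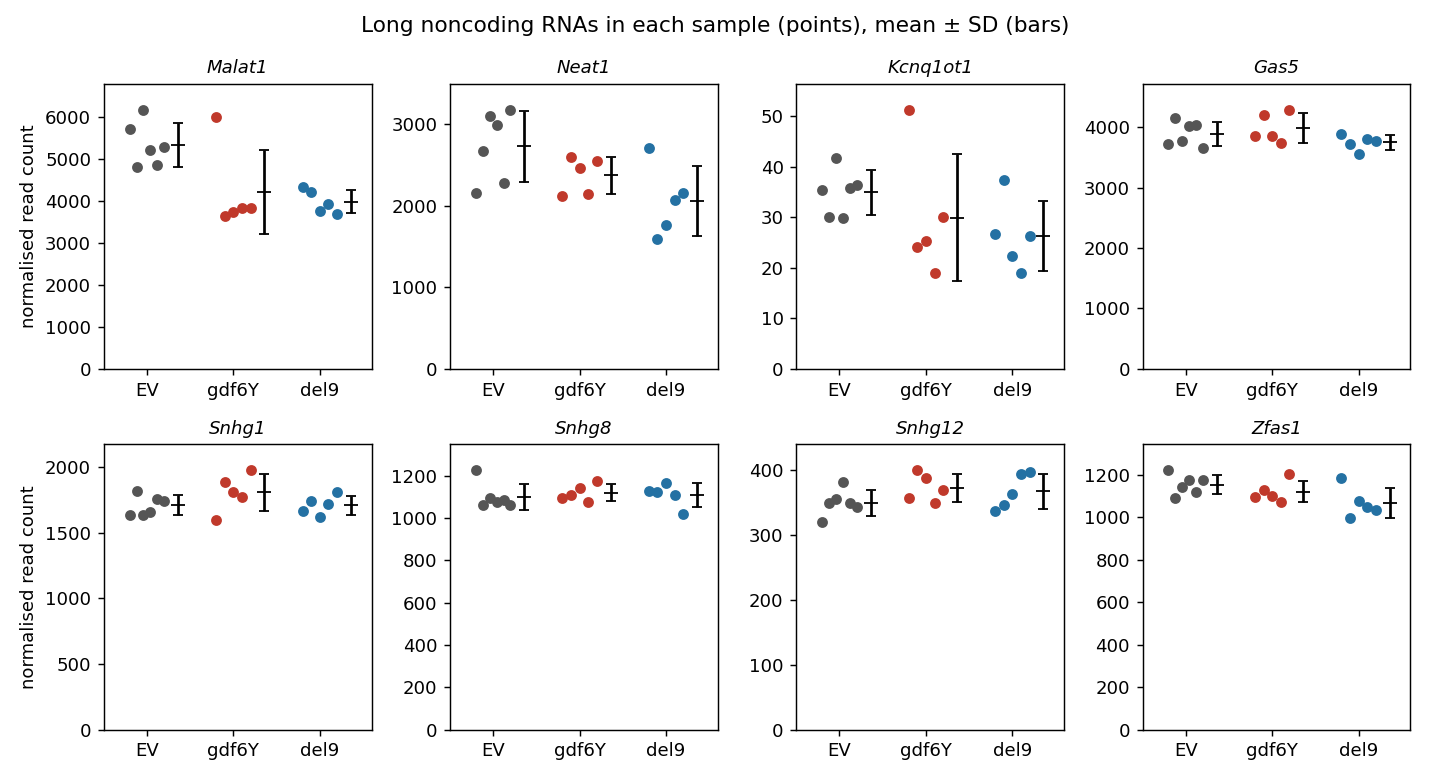
Normalised read count of each long noncoding RNA with reads, with 1 point per sample in the order of replicate numbers and the mean ± SD beside them, for EV (n = 6), gdf6Y (n = 5) and del9 (n = 5). All 5 del9 samples lie below the EV samples for *Malat1*, gdf6Y replicate 1 stands at 6008, and the host genes vary little.

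Replicate 1 of gdf6Y differed from the other gdf6Y libraries in more than *Malat1*. *Malat1* was 0.67 higher there on the log2 CPM scale, the fourth of 10075 genes in that ranking, and *Kcnq1ot1*, with 52 reads, was 1.02 higher. *Neat1* differed by -0.20 and *Snhg1* by -0.22, in the other direction. A ribosomal RNA row held 0.406% of the reads of this library, but replicate 1 had the highest share in each group, with 0.370% in EV and 0.326% in del9. The other samples held 0.179% to 0.237% in EV, 0.212% to 0.296% in gdf6Y and 0.240% to 0.298% in del9. *Malat1* in EV replicate 1 (5712) and del9 replicate 1 (4330) were the second highest and the highest of their groups. The part of this share in the *Malat1* values was not tested.

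*Neat1* varied more within groups than any host gene. Its normalised counts were 2158, 2668, 3101, 2995, 2281 and 3183 in the EV samples, and 2116, 2600, 2470, 2147 and 2547 in the gdf6Y samples. In the del9 samples they were 2715, 1597, 1762, 2068 and 2161. All 3 groups overlapped, with 3 of the 5 del9 samples and 2 of the 5 gdf6Y samples below every EV sample.

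The mean of *Neat1* was 2731 ± 435 (SD, n = 6) in EV, 2376 ± 228 (SD, n = 5) in gdf6Y and 2061 ± 431 (SD, n = 5) in del9. The quasi-likelihood test called all 3 differences: -0.40 for del9 against EV (SE 0.030, adjusted p = 5.18e-36, edgeR), -0.20 for gdf6Y against EV (SE 0.033, adjusted p = 5.21e-07, edgeR) and 0.21 for gdf6Y against del9 (SE 0.035, adjusted p = 1.41e-06, edgeR). In the last comparison 1.01% of 25878 genes were called, with 0.761% by the robust fit and 0.546% by DESeq2, and the call was lost without del9 replicate 2 (0.13, adjusted p = 0.076). None of the 3 calls held with the robust fit or with DESeq2. The SE from the samples was 0.163, 0.116 and 0.146, and the adjusted p of the robust fit was 0.21, 0.53 and 0.63. With DESeq2 it was 0.057, 0.27 and 0.92. The exact permutation test gave unadjusted p = 0.035, 0.15 and 0.21 (two-sided).

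*Kcnq1ot1* was not called in any comparison with all samples. Its log2 difference was -0.40 for del9 against EV (SE 0.176, adjusted p = 0.16, edgeR) and -0.22 for gdf6Y against EV (SE 0.174, adjusted p = 0.57). The first was called without del9 replicate 2 (-0.56, adjusted p = 0.039, edgeR), and the second ran from -0.50 without gdf6Y replicate 1 to -0.084 without gdf6Y replicate 4. The exact permutation test for del9 against EV gave p = 0.037 (two-sided, unadjusted). Its normalised counts ran from 29.9 to 41.8 in EV, from 18.9 to 51.3 in gdf6Y and from 18.99 to 37.4 in del9. *Kcnq1*, the protein-coding gene on the opposite strand of *Kcnq1ot1* at chr7:142660099-142980788, had at most 1 read in a sample.

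The host genes were called in 1 of their 15 comparisons, for del9 against EV, where 9.25% of all genes were, and their groups overlapped in all 15. *Gas5* had normalised counts of 3651 to 4148 (median 3886) in EV, 3731 to 4289 (median 3856) in gdf6Y and 3560 to 3885 (median 3778) in del9, and it was not called, except under the replicate block, for gdf6Y against del9 (adjusted p = 0.012) and del9 against EV (adjusted p = 0.047, edgeR). *Snhg1* ran from 1633 to 1821 in EV, from 1600 to 1975 in gdf6Y and from 1621 to 1806 in del9. It was called for gdf6Y against EV only under the replicate block (adjusted p = 0.033) or without gdf6Y replicate 1 (0.13, adjusted p = 0.0037, edgeR). *Snhg8* had 1017 to 1224 and *Snhg12* 320 to 400.1 over the 16 samples, with groups that overlapped, and their log2 differences lay between 0.01 and 0.09. Over 16 samples, the coefficient of variation of the 5 host genes was between 4.57% and 6.49%, against 19.3% for *Malat1* and 18.95% for *Neat1*.

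*Zfas1* was the host gene called. It was 1153 ± 46.3 (SD, n = 6) in EV and 1067 ± 69.8 (SD, n = 5) in del9, a log2 difference of -0.11 (SE 0.036, adjusted p = 0.035, edgeR). Of 5 del9 samples, 4 were below every EV sample. The call was lost with DESeq2 (adjusted p = 0.058) and in 8 of 11 fits that left out 1 library, all but those without EV replicate 2, EV replicate 5 or del9 replicate 1. *Zfas1* begins on the opposite strand from *Znfx1*, which fell in both comparisons with EV (log2 difference -0.20, adjusted p = 4.87e-08 for gdf6Y, and -0.12, adjusted p = 0.0036 for del9, edgeR). Reads were counted by strand, and those on overlapping genes of 1 strand were discarded.

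**Figure D3:**
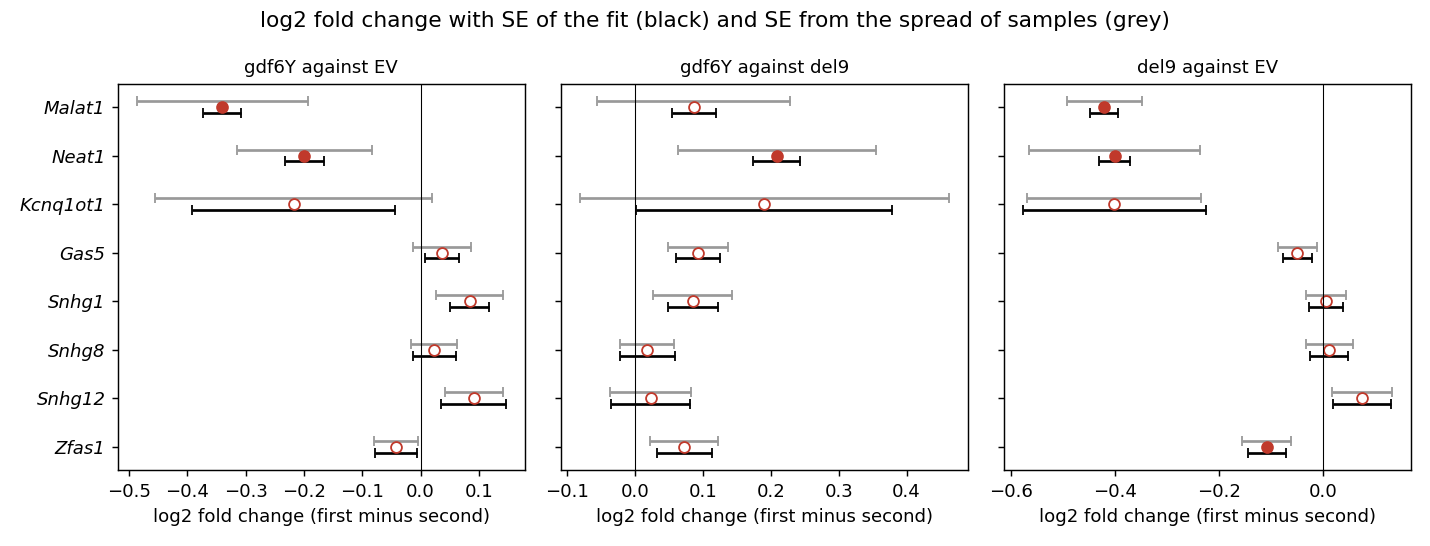
log2 fold change (first group minus second) of each long noncoding RNA in the 3 comparisons, with the SE of the quasi-likelihood fit in black and the SE from the spread of samples in grey; filled points have an adjusted p under 0.05. The grey bars of *Malat1* and *Neat1* are longer than the black ones (0.147 against 0.032 for *Malat1* in gdf6Y against EV).

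No read was counted on the 27 snoRNA genes that lie inside the host genes, nor on any of the 36 small RNA genes inside the 9 genes. In the annotation read here, these genes lie within exons of the longer gene on the same strand. Reads on overlapping genes of 1 strand were discarded, and the libraries were poly(A)-selected. These counts therefore cannot show whether the small RNAs were present. On the opposite strand of *Malat1*, *Gm37376* had 0 to 11 reads and was lower with del9 than with EV (log2 difference -2.25, SE 0.521, adjusted p = 5.12e-04, edgeR), as *Malat1* was. It was not given an adjusted p by DESeq2. *Zbtb37*, which overlaps *Gas5* on the opposite strand, fell in both comparisons with EV (-0.27 for gdf6Y, adjusted p = 1.79e-06, and -0.17 for del9, adjusted p = 0.0042, edgeR), while *Gas5* was not called.

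The pattern of *Malat1* over the 16 samples was most like those of *Gfpt1* (Pearson's r = 0.95), *Dync2h1* (0.95), *Nbeal1* (0.93) and *Itpr2* (0.93), among 10074 genes with a mean of 100 counts or more. *Dync2h1* encodes a heavy chain of the dynein motor of cilia. These 4 have 10099 to 37678 bases of annotated exon over all transcripts, a length that was not compared with that of genes in general. The pattern of *Neat1* was most like those of *Rsrp1* (0.95), *Gm49759* (0.93), *Zfp57* (0.91), *Zdhhc1* (0.90) and *Plekhn1* (0.90). With the group means removed, r was 0.92 for *Malat1* and *Dync2h1* and 0.93 for *Neat1* and *Rsrp1*. For *Gas5* the closest were *Rccd1*, *Kctd6*, *Cep70*, *Rbm25* and *Sugp2*, at 0.81 to 0.82, with 7595 to 19885 bases of annotated exon. *Malat1* and *Neat1*, which lie near each other on chromosome 19, had r = 0.38 over all samples and -0.08 with the group means removed. These values describe 16 libraries that share the 3 groups.

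**Figure D4:**
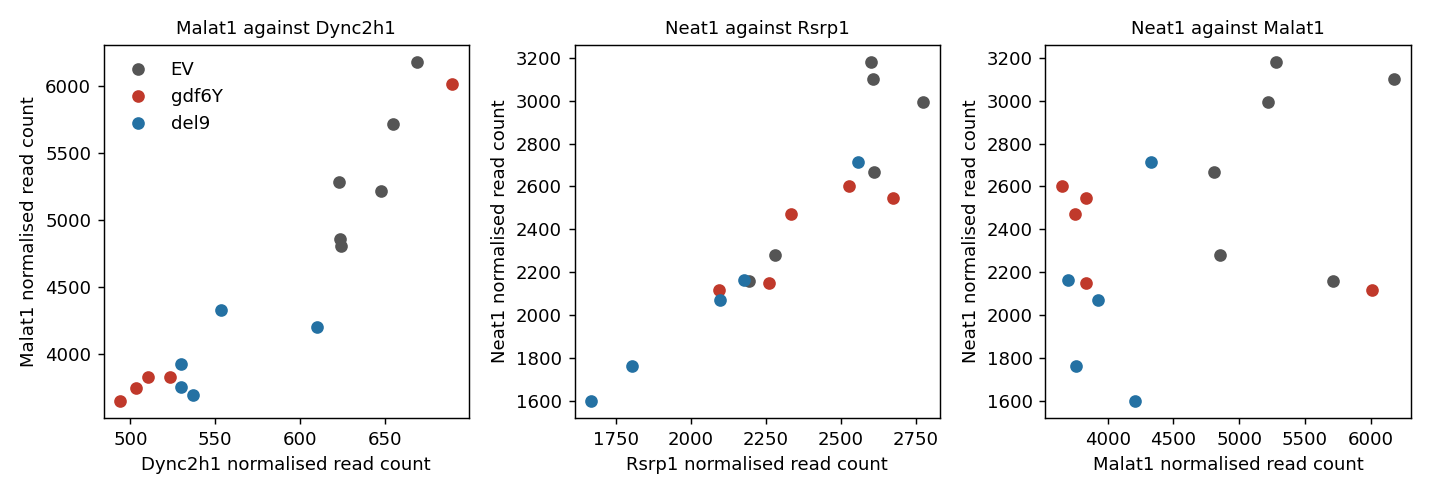
Normalised read counts of *Malat1* against *Dync2h1*, *Neat1* against *Rsrp1* and *Neat1* against *Malat1*, with 1 point per sample and colours for EV, gdf6Y and del9. The first pairs follow a line across the groups, with gdf6Y replicate 1 beside the EV samples for *Malat1*, and the last pair does not.

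Genes that work with these RNAs were followed from lists chosen by function. Their counts stand beside the shares over all genes tested, which were 4.82% higher and 4.43% lower for del9 against EV, 1.7% higher and 3.38% lower for gdf6Y against EV, and 1.01% in all for gdf6Y against del9. These shares include genes with few reads: for del9 against EV, 10085 of the 26226 genes reached a mean of 100 counts. Of the genes to which DESeq2 gave an adjusted p there, it called 18.7%. The share among genes with counts like those of the lists was not computed. Of 18 paraspeckle proteins, 3 rose with del9 against EV, namely *Rbm3*, *Sfpq* and *Pspc1* (log2 differences 0.13, 0.08 and 0.13, adjusted p = 2.36e-05, 0.021 and 0.027, edgeR). DESeq2 called *Rbm3* but not *Sfpq* or *Pspc1* (adjusted p = 0.13 and 0.065), and it called *Cpsf6* as lower (adjusted p = 0.016), a gene named after its value was seen. The 3 calls became 1 without EV replicate 3, 4 or 6 or del9 replicate 5, and 7 with the replicate block and length correction. No member was called with gdf6Y against EV, but 6 were with the replicate block and up to 5 with 1 library left out (5 without gdf6Y replicate 1). The median over the list was 0.03 for del9 against EV, beside -0.01 over all genes. Of 24 nuclear speckle and splicing proteins, 8 rose and 2 fell with del9 against EV, and 4 rose and 2 fell with gdf6Y against EV. The 10 calls for del9 became 6 with filterByExpr and without EV replicate 1, 3 or 4 or del9 replicate 5. The 6 calls for gdf6Y became 2 with filterByExpr, 3 with DESeq2, 11 with the replicate block and 13 without gdf6Y replicate 1. *Srrm2*, a scaffold of speckles, fell in both (-0.19, adjusted p = 2.68e-12, and -0.25, adjusted p = 3.41e-17, edgeR). With DESeq2 the adjusted p of *Srrm2* was 9.99e-05 for del9 and 0.010 for gdf6Y. The splicing factors *Srsf2* and *Srsf7* rose in both, by 0.16 and 0.13 with del9 and by 0.13 and 0.12 with gdf6Y. *Prpf8* fell with gdf6Y (-0.13, adjusted p = 5.46e-05), which DESeq2 did not call (adjusted p = 0.16). For gdf6Y against del9, *Clk1* and *Luc7l3* of this list rose (0.16 and 0.12, adjusted p = 0.012 and 0.039, edgeR), names taken after their values were seen, and DESeq2 called neither (adjusted p = 0.055 and 0.32). These 2 calls became 0 without gdf6Y replicate 5, del9 replicate 2 or del9 replicate 3, and 5 without gdf6Y replicate 1.

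Of 32 snoRNA host genes that encode proteins, 19 rose and 1 fell with del9 against EV, and 9 rose and none fell with gdf6Y against EV. The 9 became 22 with the replicate block, 16 without gdf6Y replicate 1 and 4 without gdf6Y replicate 5. The 1 that fell was *Eif4a2* (-0.10, adjusted p = 0.0051, edgeR), named after its value was seen, and *Clk1* was the 1 called for gdf6Y against del9, where 0 were called without gdf6Y replicate 4 or 5 or del9 replicate 2 or 3. *Nop56* and *Nop58*, core proteins of box C/D snoRNPs, rose by 0.15 and 0.14 with del9 (adjusted p = 2.73e-07 and 3.85e-06), and *Eif4a1* and *Rack1* by 0.13 and 0.12. Of the 16 other noncoding host genes, *Snhg18* alone was called, with -0.11 for del9 against EV (adjusted p = 0.030, edgeR; 0.060 with DESeq2). Of 16 snoRNP proteins, 10 rose with del9 and 3 with gdf6Y against EV. The 3 became 0 without EV replicate 4 or gdf6Y replicate 5, 1 without gdf6Y replicate 2 or 3, 5 without EV replicate 2, EV replicate 5 or gdf6Y replicate 4, 8 without gdf6Y replicate 1 and 7 with the replicate block. *Nhp2* rose in both (0.21 and 0.11), and *Dkc1* rose with del9 (0.14, adjusted p = 2.99e-05). The median log2 difference for del9 against EV was 0.09 over the protein-coding hosts, 0.10 over the snoRNP proteins and -0.08 over the noncoding hosts, beside -0.01 over all genes. The protein-coding hosts and the snoRNP proteins share *Nop56*, *Nop58* and *Dkc1*, which rose with del9, so their counts and medians are not separate results. *Clk1* is both a protein-coding host and in the splicing list. The difference between the lists was not tested.

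Of 23 factors of nonsense-mediated decay and RNA turnover, 4 rose and 4 fell with del9 against EV, and 1 rose and 4 fell with gdf6Y against EV. *Smg1*, the kinase of the pathway, fell by 0.18 with del9 and by 0.30 with gdf6Y against EV, and was also lower with gdf6Y than with del9 (-0.12, adjusted p = 0.020, edgeR; 0.97 with DESeq2). *Xrn1* and *Dcp2*, enzymes that degrade and decap RNA, fell in both comparisons with EV, and *Eif4a3* rose in both (0.17 and 0.09), although DESeq2 did not call it for gdf6Y against EV (adjusted p = 0.071).

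Among 27 other long noncoding RNAs tested for del9 against EV, *Norad* and *Mir100hg* fell. *Norad* was 1842 ± 26.5 (SD, n = 6) in EV, 1693 ± 73.3 (SD, n = 5) in gdf6Y and 1628 ± 58.1 (SD, n = 5) in del9, and it fell in both comparisons with EV also with DESeq2 (adjusted p = 0.0049 and 1.83e-06). *Mir100hg* was called for del9 against EV (-0.24, adjusted p = 1.20e-12, edgeR) and for gdf6Y against del9 (0.18), but not with DESeq2 (adjusted p = 0.14 and 0.97). Of 14 neighbours of *Malat1* and *Neat1*, *Rela* and *Pola2* rose with del9 against EV, by 0.10 and 0.11. With 1 library left out, 0 (without del9 replicate 5) to 2 of the 14 were called, with 1 left without EV replicate 1 or 2 or del9 replicate 1 or 3, and 4 were called with the replicate block. Of 13 imprinted neighbours of *Meg3* and *Kcnq1ot1* tested there, *Nap1l4* rose by 0.11 (adjusted p = 0.0042, edgeR). *Nap1l4* is also among the protein-coding host genes above.

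**Figure D5:**
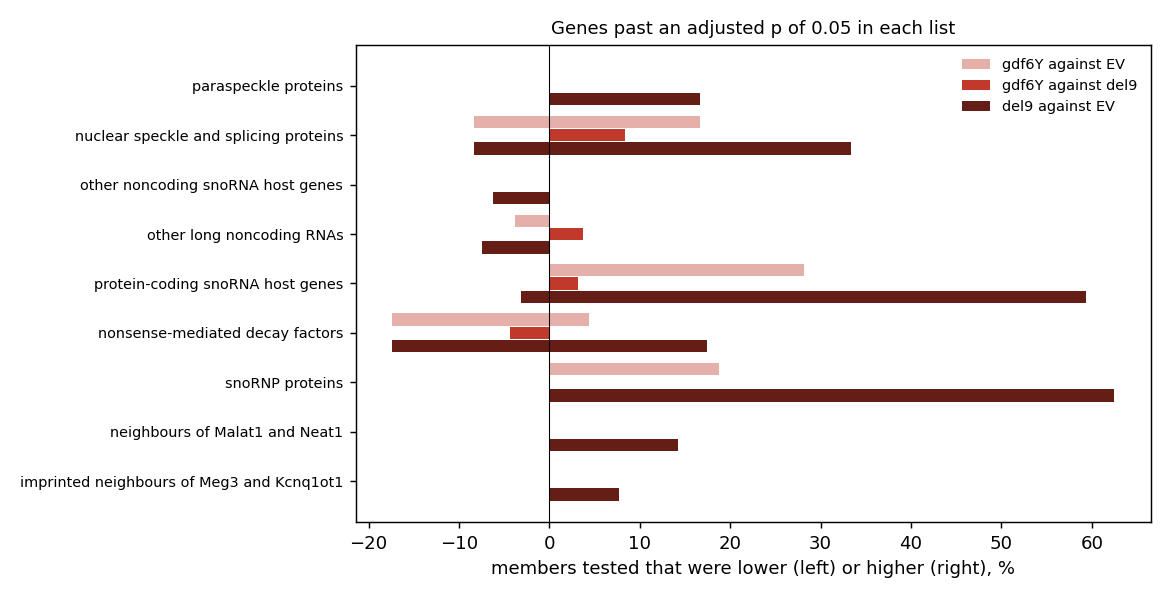
Share of the tested genes of each list (%) that had an adjusted p under 0.05, to the right for higher and to the left for lower in the first group, in 3 shades for the 3 comparisons. The longest bars are those of protein-coding snoRNA host genes (19 of 32) and snoRNP proteins (10 of 16) for del9 against EV, lists that share *Nop56*, *Nop58* and *Dkc1*.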

How the data were processed

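RNA of TM4 cells from 16 samples was sequenced by the authors. Molecular identifiers were read from each library, STAR 2.7.10a mapped the reads to GRCm39, UMI-tools collapsed the PCR duplicates, and featureCounts 2.0.3 counted unique reads by strand. The deposited values are whole-number counts per gene without normalisation, in a table of 56748 genes. The authors left out 2 further samples for quality, per their methods. Gene positions were read from GENCODE on GRCm39. It covers 56017 identifiers and is not the release used for counting. Promoter sequences are from RefSeq (GRCm38.p6).

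Counts were scaled with TMM in edgeR 4.0.16 (R 4.3.3) and tested for 2 groups at a time by quasi-likelihood, without covariates, for genes with at least 1 count. Benjamini-Hochberg adjustment ran over all genes tested, with a threshold of 0.05. SEs follow from each test statistic, or from the spread of log2 CPM (prior count 2) over samples. The main fit drew the variance of each gene toward one shared over genes. The weight of the shared variance was 738 degrees of freedom for gdf6Y against EV and infinite for gdf6Y against del9 and del9 against EV. The samples gave 8 or 9. The p-values of the listed genes rest on this fit too. The fit was tested on counts simulated with 1 dispersion for all genes, which does not bear on genes that vary more than others. The 9 genes and all lists were chosen with earlier results of these data known. Named list genes are at most 4 per list, by the smallest adjusted p over the 3 comparisons, and *Clk1*, *Luc7l3*, *Eif4a2* and *Cpsf6* were added after their values were seen. Genes of similar pattern are the 5 with the highest Pearson's r, of which 1 is not reported here.

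The alternatives were DESeq2 1.42.0, its size factors or total counts, filterByExpr, at least 10 counts in every sample, edgeR 4's dispersion, all groups in one model, a replicate block, a length correction, both, and each library left out. The robust quasi-likelihood fit and the exact permutation test were chosen after seeing the data. Same-numbered samples did not deviate together throughout: over 12584 genes the correlation of their deviations from the group means was between 0.0040 and 0.20 for gdf6Y and EV, 0.099 and 0.16 for gdf6Y and del9, and -0.028 and 0.16 for del9 and EV.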

Additional observations from a re-analysis of the deposited data

Results flagged for a closer look

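Of 24 sets of samples (8 genes in 3 groups), 2 had a sample far from the others, where chance gives about 1 in 20. *Malat1* in gdf6Y had 1 sample at 6008, replicate 1, with the others at 3652 to 3835, and the gap took 0.923 of the whole range. *Snhg8* in EV had replicate 1 at 1224, with the others at 1060 to 1092, and the gap took 0.807 of the range.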

How the results depend on the processing

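The call of *Malat1* for gdf6Y against EV and all 3 calls of *Neat1* were lost with the robust fit, which lets a gene keep its own spread. At 21486850 to 26444903 reads per sample, the 19 to 52 reads of *Kcnq1ot1* limit the precision of its values. The lower *Malat1* with del9 than with EV was called in all 12 alternatives (log2 difference -0.44 to -0.41) and with any 1 library left out (-0.46 to -0.37). The permutation test is among the 12 by its unadjusted p.

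The difference of *Malat1* between gdf6Y and EV was no longer called with the robust fit (-0.34) or DESeq2 (-0.34). That of *Neat1* was lost with filterByExpr (-0.20), at least 10 counts in every sample (-0.20), the robust fit (-0.20), DESeq2 (-0.20), the length correction (-0.091), the block with length correction (-0.033) and the permutation test (-0.19). *Neat1* between gdf6Y and del9 was lost with filterByExpr (0.21), at least 10 counts (0.21), edgeR 4's dispersion (0.21), the robust fit (0.21), DESeq2 (0.21), all groups in one model (0.21) and the permutation test (0.22), and between del9 and EV with the robust fit (-0.40) and DESeq2 (-0.41). *Zfas1* between del9 and EV was lost with filterByExpr (-0.12), at least 10 counts (-0.11), edgeR 4's dispersion (-0.11) and DESeq2 (-0.11). *Kcnq1ot1* between del9 and EV passed the unadjusted permutation test (-0.41). The robust fit uses the gene's own spread; for the other alternatives the cause was not tested.

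The replicate numbers did not pair the samples alike in every comparison, by the correlation of their deviations. Of 5 samples, 3 correlated best with their own number for gdf6Y with EV, 4 for gdf6Y with del9 and 1 for del9 with EV. The mean correlation of same-numbered samples was 0.12, 0.13 and 0.061 in these comparisons. Whether same-numbered samples share an effect was not tested. With the replicate block, which leaves out EV replicate 6, 2114 genes were called for gdf6Y against EV in place of 1338, and 661 for gdf6Y against del9 in place of 261, or 729 with the length correction. Under the block *Snhg1* was called for gdf6Y against EV (0.092), *Gas5* for gdf6Y against del9 (0.092, and 0.079 with the length correction) and *Gas5* for del9 against EV (-0.068 and -0.072).

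Calls for gdf6Y against del9 fell to 45 with filterByExpr, 44 with at least 10 counts, 163 with edgeR 4's dispersion and 81 with DESeq2. With 1 library left out they ran from 160 (without del9 replicate 2) to 441 (without del9 replicate 1), and those for gdf6Y against EV from 794 (without gdf6Y replicate 5) to 1751. The log2 difference then ran from 0.051 to 0.13 for *Snhg1* and -0.50 to -0.084 for *Kcnq1ot1* with gdf6Y against EV, and, for gdf6Y against del9, from -0.077 to 0.13 for *Malat1*, 0.13 to 0.33 for *Neat1*, -0.10 to 0.35 for *Kcnq1ot1*, -0.012 to 0.031 for *Snhg8* and -0.0077 to 0.052 for *Snhg12*. For del9 against EV it ran from -0.56 to -0.30 for *Kcnq1ot1*, -0.15 to -0.085 for *Zfas1*, -0.017 to 0.025 for *Snhg1* and -0.0053 to 0.044 for *Snhg8*.

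Signs turned, with no call, in small differences. For gdf6Y against EV these were *Kcnq1ot1* with the length correction (0.075, and 0.092 with the block) and *Snhg8* (-0.017 and -0.026). *Snhg8* turned to -0.0055 and -0.0057 in the same fits for gdf6Y against del9, and for del9 against EV to -0.0098, -0.019 and, with total counts, -0.0048. *Snhg1* for del9 against EV turned with DESeq2's size factors (-0.00028), total counts (-0.011), filterByExpr (-0.0019), at least 10 counts (-0.00019), the length correction (-0.0034) and DESeq2 (-0.00041). Levels per kilobase moved by less than 1 SD under every scaling and every library left out.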
